A study of Mus musculus with 6 samples.

Results

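A dense array of YAP1 ChIP-seq peaks on mouse chromosome 6, in the interval that runs from Ezh2 toward Pdia4, was examined in 4 tumour libraries. All peaks of the 4 deposited lists that overlapped chromosome 6 from 47480000 to 47800000 (mm9) were taken, and those that overlapped by at least 1 bp were merged. This gave 161 peaks and 47 merged regions (called members, m01 to m47 in order of position), of the 25223 merged regions of the whole series. The members were chosen by the positions of called peaks, so their number and crowding are a description and were not tested. All 4 libraries came from flash-frozen tissue labelled MB, taken here as medulloblastoma, of genotype fSMO-M2;hGFAPcre. This is an activated form of Smoothened, the signal transducer of the Hedgehog pathway, expressed after recombination by Cre, whose gene is driven by the promoter of human GFAP. By title, SGf 1 and SGf 2 were from females and SGm 1 and SGm 2 from males, with no treatment or age given. The Sex tag and the title disagree for SGm 1 (tagged Female) and SGf 2 (tagged Male). Nothing in the labels tells if each library was made from another animal or if tissue was pooled, so p-values here measure only the spread between these libraries, which may be technical. The peak lists held 16145 (SGf 1), 16769 (SGf 2), 4155 (SGm 1) and 9470 (SGm 2) peaks, and the 2 pooled inputs of the series were not analysed here.

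YAP1 is a transcriptional co-activator that the Hippo kinases hold in check, and it reaches DNA mostly through TEAD factors, which recognise a short motif with the core GGAATG. Ezh2 encodes the catalytic subunit of Polycomb repressive complex 2, which methylates histone H3, and Pdia4 encodes a disulfide isomerase of the endoplasmic reticulum. Between them the mouse genome holds tandem copies of the unit that carries the 4.5S RNA gene, a small rodent RNA made by RNA polymerase III and related to B1 repeats. Short genes of Y RNAs, small RNAs of Ro ribonucleoprotein particles that are also made by RNA polymerase III, lie in the same stretch. In tandem arrays, short reads can match several copies equally well, and a genome assembly may hold fewer copies than the animal does. The part of repeat mapping in the results that follow was not tested, since the reads and an mm9 genome were not used here.

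RefSeq (GRCm38.p6) lists 14 genes between Ezh2 and Pdia4, among them Rn4.5s, the 4.5S RNA gene, and the Y RNA genes Rny3 and Rny1. Of these 14 genes, 8 had an entry in the RefSeq promoter table, with 11 promoters of 300 bases (250 before the start and 50 after it). Promoters of 4 genes (Gm40369 at the second of its listed starts, Gm40367, Gm36327 and Gm40364) were identical over all 300 bases. That of Gm52861 lay at an edit distance of 4 single-base changes from them. These sequences are shown because they make the repetition of the interval visible, and because each holds the TEAD core on its reverse strand (CATTCC, in capitals).
Gm40369 second start, Gm40367, Gm36327 and Gm40364: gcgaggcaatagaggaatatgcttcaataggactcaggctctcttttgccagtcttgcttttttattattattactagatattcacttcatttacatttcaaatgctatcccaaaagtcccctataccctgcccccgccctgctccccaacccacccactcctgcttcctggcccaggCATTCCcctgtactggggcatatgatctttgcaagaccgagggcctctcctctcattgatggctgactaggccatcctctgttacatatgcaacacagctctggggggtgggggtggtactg
Gm52861: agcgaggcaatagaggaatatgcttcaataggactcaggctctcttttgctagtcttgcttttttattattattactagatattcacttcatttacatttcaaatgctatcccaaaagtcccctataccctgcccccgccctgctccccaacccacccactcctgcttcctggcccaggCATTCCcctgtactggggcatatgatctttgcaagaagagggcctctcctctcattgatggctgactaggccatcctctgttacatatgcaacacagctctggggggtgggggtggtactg
The capitals start at position 179 of the first sequence and at position 180 of the second, counted from 1 at the 5′ end. The motif was searched as GGAATG and its reverse complement CATTCC, and 14.7% of the 32851 promoters of the table held it on either strand. It was in 5 of the 11 promoters between Ezh2 and Pdia4, and those 5 are the copies shown, so they count as 1 sequence rather than 5 independent matches. The other start of Gm40369 and the promoter of Gm52862 shared a run of 38 bases, shown because it is a further sequence found at more than 1 gene of the interval.
Run shared by Gm40369 and Gm52862: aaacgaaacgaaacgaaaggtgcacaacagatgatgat
In the whole table, 16 sequences were shared by promoters of 4 or more genes, and they made up 0.320% of the promoters. The peaks are on mm9 and these sequences come from a later build, so no member was placed on any of them, and members are named by position alone.

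The 47 members fell into 4 blocks along the interval. The block nearest its low end, m01 to m03, ran from 47543780 to 47545852. After 55.0 kb with no peak came the first array, m04 to m23, with 20 members over 35.7 kb (47600808 to 47636492). A further 53.1 kb (47636493 to 47689641) held no peak of any library. The second array, m24 to m42, followed with 19 members over 38.7 kb (47689642 to 47728390). The last block, m43 to m47, was scattered from 47738100 to 47786519. The arrays together held 39 members and 137 of the 161 peaks, and the flanking blocks held 8 members and 24 peaks. These blocks were drawn after the positions were seen. Just outside the interval, the nearest regions were in SGf 1 alone, 75.6 kb before it (47404175 to 47404361, 4.10-fold) and 27.2 kb after it (47827236 to 47827758, 4.67-fold).

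**Figure D1:**
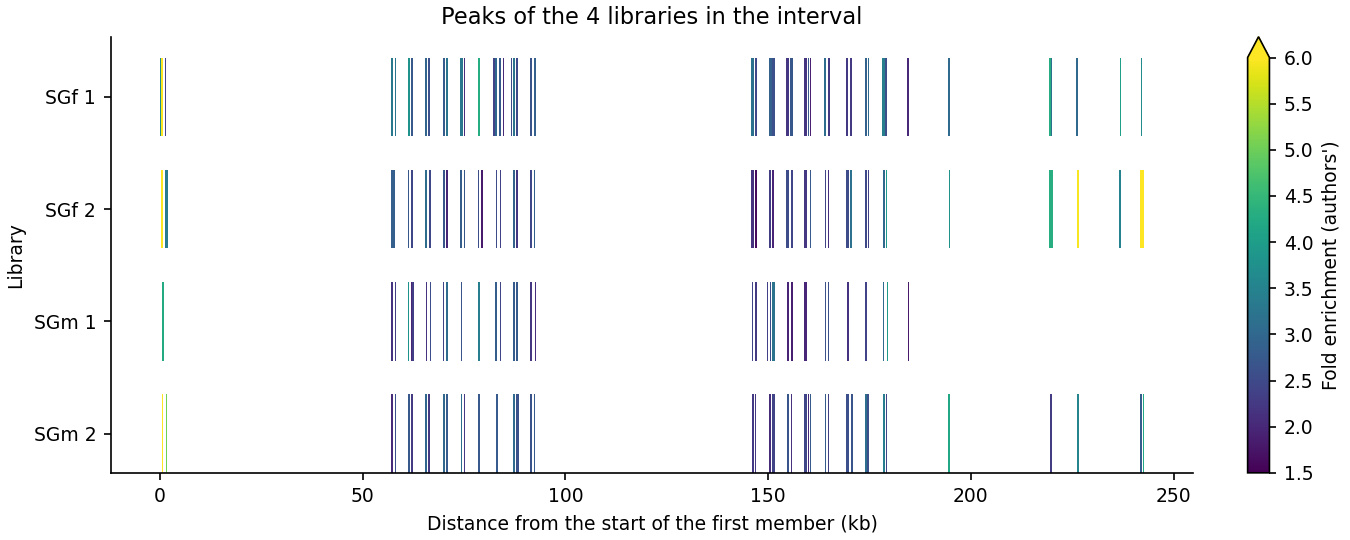
Peaks in the interval by library (rows), against the distance in kb from the start of the first member; colour gives the authors' fold enrichment. The 39 array members form 2 dense runs separated by 53.1 kb without peaks, and their colours lie at the low end of the scale, while m02 at the left reaches 10.4-fold in SGf 1.

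Members lay closer to each other than regions did in the series as a whole. The median gap between neighbouring members was 1074 bp, against 29045 bp between neighbouring regions of the whole series. The members' median falls between short and long gaps and moves with the libraries merged: it was 2852.5 bp without SGf 1 and 447 bp without SGf 2. Within the arrays most gaps were of a short or a long kind: of 38, 21 were under 500 bp and 15 were from 2.5 to 5 kb. The other 2 were the gap between the arrays and a gap of 1753 bp before m19. Over all regions, 11.1% of gaps were under 500 bp and 4.75% were from 2.5 to 5 kb. When the genome was cut into 8434 intervals of 320 kb, the 47 members ranked second, behind an interval with 68 regions, and the median interval had 1. The rank rests on where the cuts fall: with the cuts moved by 0.5 of an interval, the fuller of the intervals that share the members ranked 18, with 28 regions. Members had a median width of 537 bp (range 181 to 1187), against 314 bp over all regions. Merged width tends to grow with the number of lists merged, and members were in more lists than most regions. Within single lists, member peaks had a median width of 474 bp in SGf 1 against 292 bp over its list. In SGf 2 these were 459.5 and 311 bp, in SGm 1 309 and 235 bp, and in SGm 2 399 and 278 bp.

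Array members were mostly called in every library. All 4 libraries held 28 of the 47 members, against 7.89% of all merged regions, and within the arrays 27 of 39. A further 10 members were in 3 libraries (17.7% of all regions), 3 in 2 libraries (21.7%) and 6 in 1 library (52.7%). SGf 1 held 45 members, SGf 2 held 40, SGm 1 held 31 and SGm 2 held 38. Over all regions these libraries held 62.7%, 65.5%, 16.0% and 36.5%, so SGm 1, the shortest list, stood furthest above its own background in this interval. Of the 18 clusters into which the array members fall at gaps under 1 kb, 17 had a member called in all 4 libraries. In the 27 array members called everywhere, the summits of the 4 libraries spanned a median of 67 bp, and 100 bp or less in 19 of them. The span was wider in the rest, up to 753 bp at m04. Merging by overlap favours near summits, and no span over all regions was set beside these values.

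The arrays were regular. Each array held 9 clusters of peaks, and the leading peak of a cluster, the one with the highest −log10 p-value, marked its position. In the first array the 8 distances between neighbouring leading summits, taken at the median position over libraries, were 3986, 4286, 4378, 4332, 4312, 4334, 4326 and 4317 bp. After the first step, therefore, all 7 lay between 4286 and 4378 bp. In the second array they were 4233, 4364, 4332, 4889, 5553, 4376, 4397 and 6065 bp. Here 5 of the 8 lay between 4233 and 4397 bp, and 3 steps were longer. The last of these led to m42 (47728068 to 47728390), which was called in SGf 1 at 2.02-fold and in SGm 1 at 1.81-fold and in no other library.

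Median spacing in the first array was similar in the 4 libraries. The median distance in the first array was 4326 bp in SGf 1, 4329 bp in SGf 2, 4287 bp in SGm 1 and 4326 bp in SGm 2. The SD of its 8 distances was 127 bp in each SGf library, 379 bp in SGm 1 and 349 bp in SGm 2. In the second array the median was 4390, 4360, 4631 and 4399 bp in that order, and the value of SGm 1 includes the steps to and from m41, its leading peak where the other libraries had m40. Leading summits lay within 120 bp of each other across the libraries in 15 of the 18 clusters. In the other 3 clusters, 1 library (SGm 2 in the cluster of m04, and SGm 1 in the cluster of m09 and in that of m40) had its highest −log10 p-value at another peak of the cluster. A search over periods from 1000 to 8000 bp gave 4313 bp as the best period for all summits of the first array and 4701 bp for the second, where the longer steps enter. The mouse 4.5S RNA repeat unit is known to be about 4.2 kb long, and the median of the 7 even steps of the first array, 4326 bp, was 1.03 times that length. This value leaves out the shorter first step. With that step the median between median positions was 4321 bp, and in the second array it was 4386 bp. The best period lay further from 4.2 kb in the second array, at 4701 bp, and over all members, at 4518 bp.

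**Figure D2:**
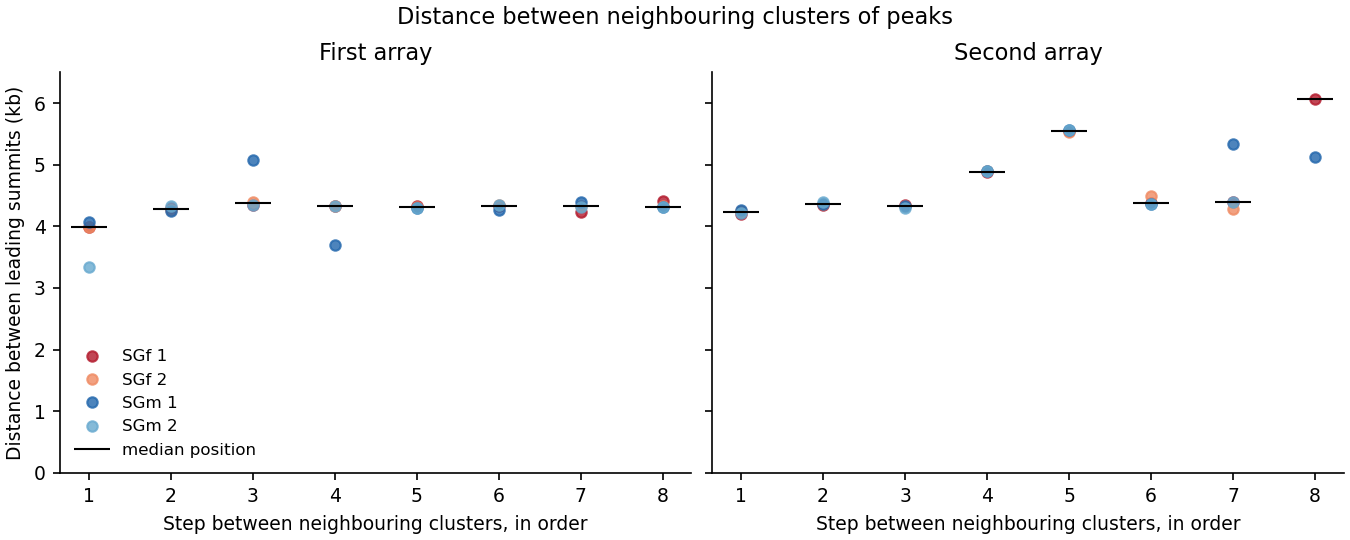
Distance in kb between leading summits of neighbouring clusters, for each step along the first (left) and second (right) array; points are libraries and black bars the distance between median positions. In the first array 7 of 8 bars lie between 4286 and 4378 bp, and the second array has 3 longer steps.

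Within most clusters a further peak lay to the right of the leading one. Among clusters with several peaks, the leading peak was the leftmost in 14 of 16 in SGf 1, 16 of 16 in SGf 2, 9 of 12 in SGm 1 and 14 of 15 in SGm 2. A second peak 300 to 1500 bp to the right was called in 16 of 18, 16 of 17, 10 of 18 and 14 of 17 clusters. Its median distance from the leading summit was 677 bp in SGf 1, 675 bp in SGf 2, 918.5 bp in SGm 1 and 695 bp in SGm 2. The distance varied between clusters, from 541 to 1047 bp in SGf 1, 604 to 1229 bp in SGf 2, 628 to 1098 bp in SGm 1 and 577 to 1216 bp in SGm 2. The choice of the leading peak by p-value largely fixes that the second peak is the lower, so its height is given as a description. The median ChIP pileup, the number of fragments stacked at the summit, was 77 in SGf 1 against 146.5 at the leading peak. In SGf 2 these medians were 71.5 and 124, in SGm 1 60 and 110, and in SGm 2 77 and 141.

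**Figure D3:**
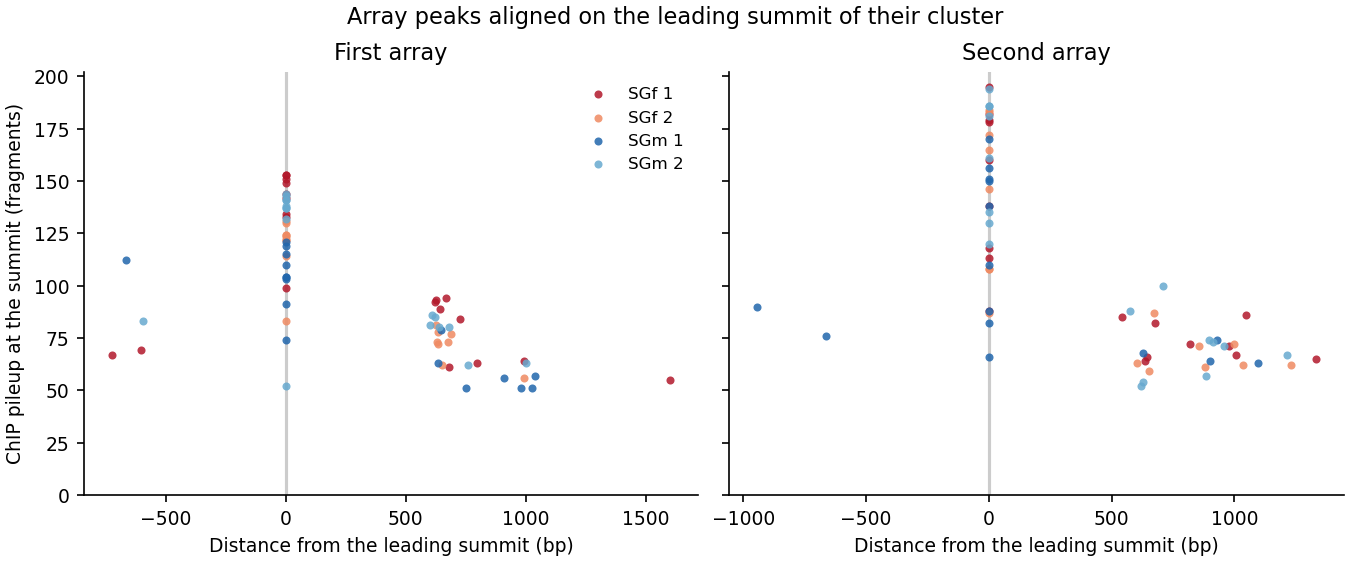
ChIP pileup in fragments at each array summit, against its distance in bp from the leading summit of its cluster, for the first (left) and second (right) array; colours are libraries. Leading peaks stand at 0, and most other peaks stand 500 bp or more to the right with a lower pileup.

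Pileups were recovered from the deposited values. In every list, the fold enrichment and p-value of 100% of peaks fitted a whole-number ChIP pileup and a background, with the fold equal to (pileup + 1)/(background + 1) and the p-value a Poisson upper tail, to within 0.002 in −log10 p. In SGm 2 the ChIP pileup enters the fold after scaling by 0.903, and the pileups given here are before that scaling. Pileup and background are local heights and do not give the total depth of a library, which is unknown.

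Array peaks were tall in the ChIP, and the background against which they were called was tall too. In SGf 1 the median array pileup was 92.5 fragments, against 27 over its list, and the median background was 33.3 against 6.57. In SGf 2 the pileup was 87 against 27 and the background 38.1 against 6.54. In SGm 1 they were 89 against 24 and 32.2 against 5.64, and in SGm 2 94 against 31 and 34.5 against 6.52. The pileup was thus 3.03 to 3.71 times the list median, and the background 5.07 to 5.83 times. Fragments above background, pileup (scaled in SGm 2) less background, had array medians of 59.7, 53.9, 56.4 and 51.6 in SGf 1, SGf 2, SGm 1 and SGm 2, against 19.6, 20.2, 17.8 and 20.9 over the lists.

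High background was rare in the lists and the rule in the arrays. A background above 20 fragments was found at 0.384% of the peaks of SGf 1, 0.358% of SGf 2, 1.23% of SGm 1 and 0.781% of SGm 2. Among array peaks it was found at 37 of 38, 32 of 33, 31 of 32 and 32 of 34. These made up 59.7%, 53.3%, 60.8% and 43.2% of all such peaks in the lists. At the flanking members it was found in 0 peaks of any library. Across array peaks, pileup and background went together, with Pearson's r of 0.875 in SGf 1 (38 peaks), 0.931 in SGf 2 (33), 0.895 in SGm 1 (32) and 0.938 in SGm 2 (34), and Spearman's rho of 0.886, 0.902, 0.851 and 0.971. Peaks are not independent replicates and each pair of values comes from the same fold and p-value, so these are descriptions. Only called peaks enter, and a peak over a high background is called only if its pileup is high too, which favours a positive correlation. No correlation over the whole lists was set beside these values.

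**Figure D4:**
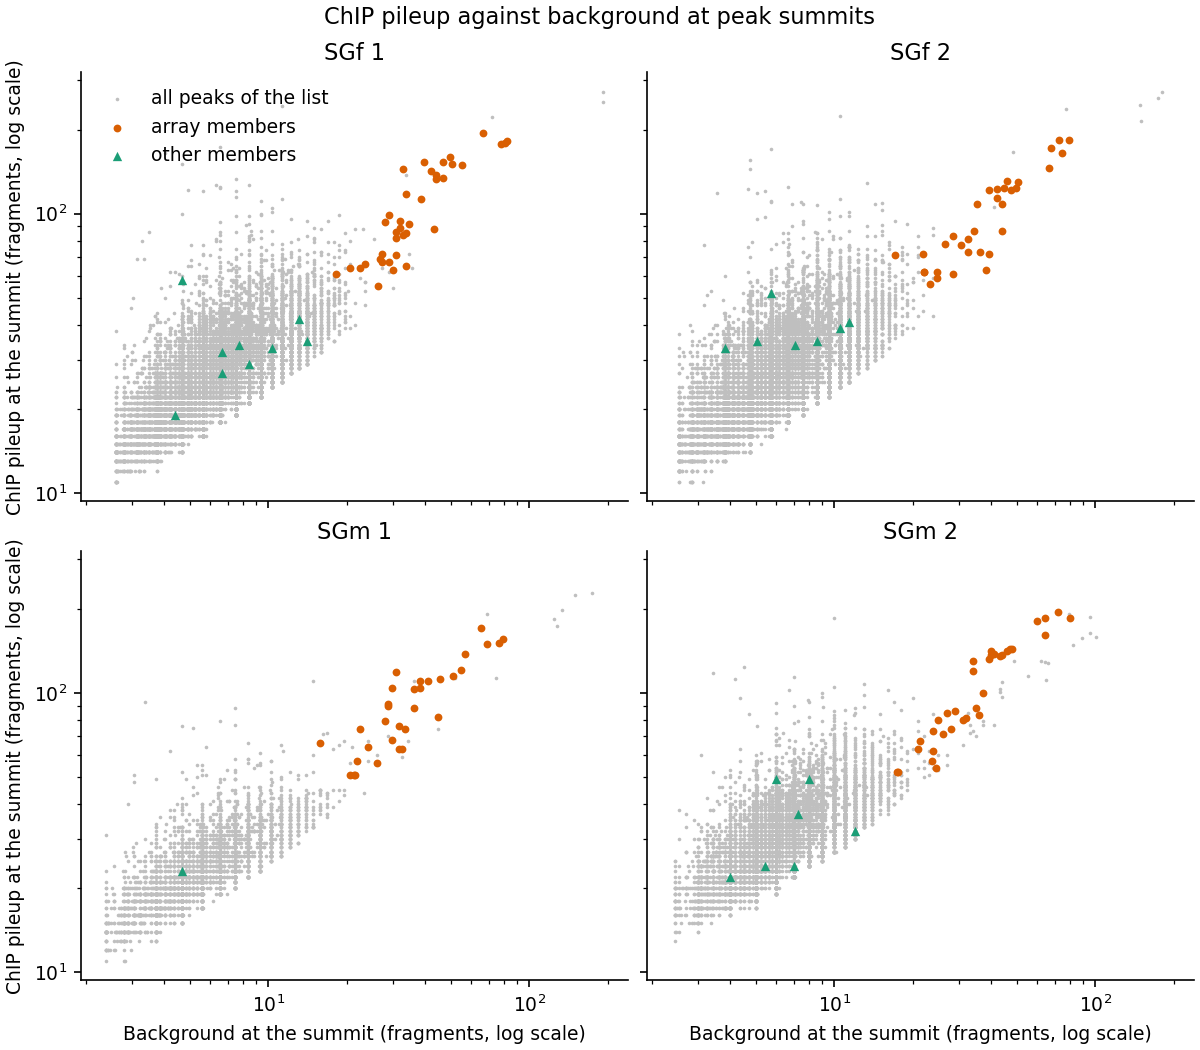
ChIP pileup against background at peak summits, in fragments on log axes, with 1 panel per library: grey, all peaks of the list; orange, array members; green triangles, other members. Array peaks occupy the upper right of each panel, with backgrounds mostly above 20 fragments, and the flanking members lie within the main cloud.

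At the median, fold enrichment at array peaks was low while the p-values were strong. The median fold was 2.73 in SGf 1, 2.49 in SGf 2, 2.41 in SGm 1 and 2.63 in SGm 2, against list medians of 3.63, 3.78, 3.63 and 3.80. In percentiles of their own list, array peaks had medians of 11.4, 4.24, 3.33 and 6.48 by fold and of 92.1, 87.5, 92.8 and 84.4 by p-value. A peak in both the lowest 20% of its list by fold and the highest 20% by p-value was rare, at 0.0929% of SGf 1, 0.107% of SGf 2, 0.505% of SGm 1 and 0.211% of SGm 2. The arrays held 15 of the 15 such peaks of SGf 1, 16 of 18 of SGf 2, 16 of 21 of SGm 1 and 16 of 20 of SGm 2. Such peaks were 39.5%, 48.5%, 50% and 47.1% of the array peaks of these libraries, so the class does not describe every array peak. Background was solved from the same fold and p-value, so this class largely restates the high background and is no separate result. The lowest percentiles of array peaks by p-value were 17.4, 0.847, 16.0 and 4.54. Fold and p-value are the authors' values for single peaks and were not tested between lists.

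**Figure D5:**
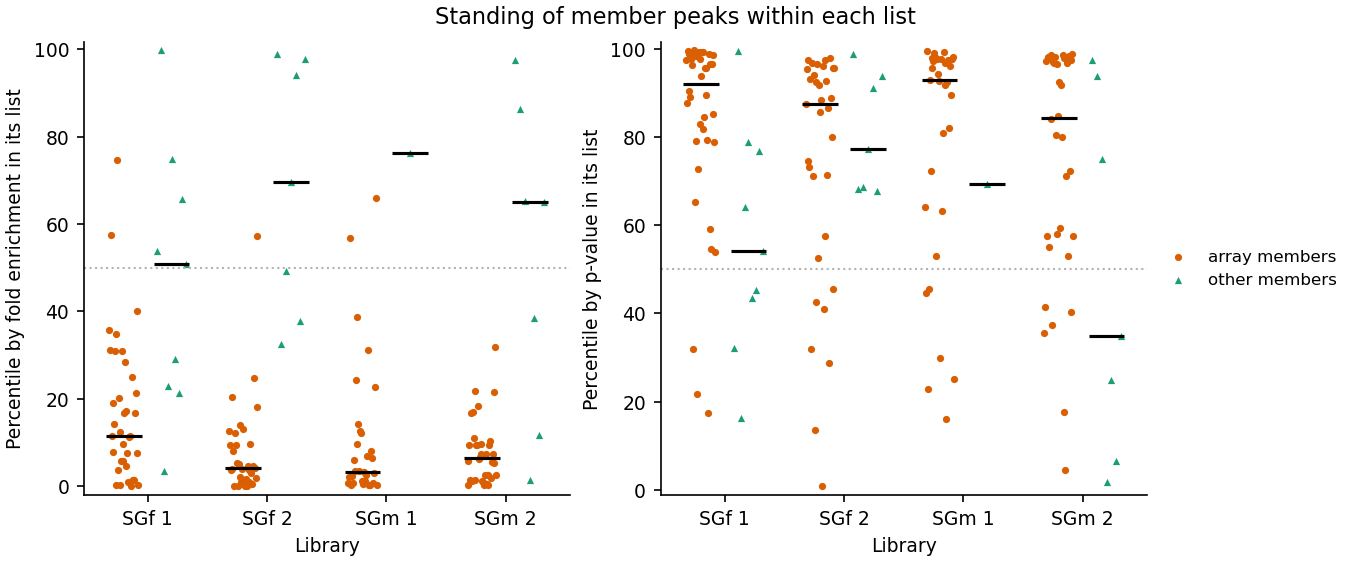
Percentile of each member peak within its own list, by fold enrichment (left) and by p-value (right), for the 4 libraries; orange points are array members, green triangles other members, black bars medians and the dotted line the list median. Array medians lie at 3.33 to 11.4 by fold and at 84.4 to 92.8 by p-value.

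The members named by rank are those whose poorest raw rank by fold was best, which gave 1 flanking and 9 array members. The lists differ in length, so this rank is mostly set by the longer SGf lists, and it is no order of strength over the libraries. By the lowest percentile over the 4 lists, m02 (76.4) was followed by m40 (18.2), m20 (12.7), m11 (9.55), m05 (9.38) and m13 (5.22), while m07, m04 and m23 had percentiles of 0.842, 0.818 and 0.433 in SGm 1. By either order m02 (47544099 to 47544635) stood at the head, in the block nearest the low end of the interval. Its fold enrichment was 10.4 in SGf 1, 7.89 in SGf 2, 4.24 in SGm 1 and 6.47 in SGm 2, which placed it at ranks 45, 191, 974 and 234 of the lists. It was the single member outside the arrays called in all 4 libraries, and SGm 1 called no other flanking member. The pileup of m02 was 58, 52, 23 and 49 fragments over a background of 4.69, 5.72, 4.66 and 6.0, so its background lay below the list median in each library. Its neighbours were weaker or less shared. The first member, m01 (47543780 to 47544038), was called in SGf 1 alone at 3.71-fold, and m03 (47544975 to 47545852) had 2.39-fold in SGf 1, 3.38-fold in SGf 2 and 5.03-fold in SGm 2.

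In the first array, m05 (47604834 to 47605421) led the second cluster, with fold enrichments of 3.81 in SGf 1, 2.73 in SGf 2, 3.78 in SGm 1 and 2.73 in SGm 2. Its pileups of 153, 124, 119 and 144 fragments stood over backgrounds of 39.4, 44.8, 30.8 and 47.0. SGf 1 and SGm 1, the libraries with the lower background here, had the higher fold. The next leaders repeated this height. At m07 (47609176 to 47609685) the pileups were 151, 122, 121 and 138, with folds of 2.94, 3.07, 2.18 and 2.99. At m11 (47617851 to 47618391) the pileups were 142, 131, 104 and 141, with folds of 3.31, 2.82, 2.68 and 3.13. At m20 (47630781 to 47631371) they were 153, 123, 103 and 137, with folds of 3.21, 2.89, 2.78 and 3.04. In each of these 4 members the pileup was lowest in SGm 1 and highest in SGf 1. These pileups are not scaled between libraries, whose total depth is unknown, so this order is a description. The members m09 (47613485 to 47613968, 2.42-fold to 3.01-fold) and m23 (47635951 to 47636492, 2.10-fold to 2.89-fold) had their lowest fold in SGm 1. At m23 the summit of SGm 1 was at 47636317 and those of the other libraries at 47636043 to 47636077, so the folds were not read at 1 position. The widest member, m04 (47600808 to 47601994, 1187 bp), opened the array and merged a leading and a second peak: it had 2 peaks in SGf 1 (3.32-fold and 3.24-fold), SGm 1 (2.17-fold and 2.32-fold) and SGm 2 (2.05-fold and 2.61-fold), and 1 in SGf 2 (2.84-fold).

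In the second array, m40 (47721853 to 47722482) was best placed by either order, at 3.42-fold in SGf 1, 3.01-fold in SGf 2, 3.04-fold in SGm 1 and 3.38-fold in SGm 2. Its neighbour m41 (47722694 to 47723178) had similar pileups in the 4 libraries, 72, 71, 66 and 71 fragments, but folds of 2.59, 3.97, 3.98 and 2.41. The difference lay in the background, which was 27.2 and 26.0 in SGf 1 and SGm 2 and 17.2 and 15.8 in SGf 2 and SGm 1. Each background was read at the library's own summit, and the summits of m41 spanned 138 bp. Differences of position and of library cannot be told apart here. The tallest peaks of the interval lay in this array, at members named after their values were seen. At m27, m29, m31 and m36 the ChIP pileup was 150 to 195 fragments in the 4 libraries, and the background 60.0 to 82.6. At m36 (47713055 to 47713624) the pileup was 178, 184, 150 and 186 over 77.9, 72.4, 69.0 and 64.0, and the fold 2.27, 2.52, 2.16 and 2.60. In each library m36 was thus taller than m05 in pileup and lower in fold.

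In the last block, m43 to m47, background was lower than in the arrays. Its peaks had a median background of 8.08 fragments in SGf 1, 7.10 in SGf 2 and 7.0 in SGm 2, and a median fold of 3.41, 4.32 and 3.53. No member of the last block was called in SGm 1. Its members had a median width of 594 bp, against 510 bp in the arrays. The last member, m47 (47785473 to 47786519), had 3.65-fold in SGf 1, 7.07-fold in SGf 2 and 2 peaks of 2.83-fold and 4.17-fold in SGm 2. Among the others, m46 (47780351 to 47780708) was the single member called in both SGf and in neither SGm library (4.01-fold and 3.48-fold), a pattern of 11.1% of all regions. The reverse pattern was found at 0 of the 47 members and at 0.0912% of all regions.

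The number of peaks in the interval did not separate the SGf from the SGm libraries, female and male by title. SGf 1 had 47 peaks and SGf 2 had 40, and SGm 1 had 33 and SGm 2 had 41. The groups overlapped, since SGm 2 had more than SGf 2. The means of 43.5 and 37 differed by 6.5 peaks, with p = 0.667 in a two-sided exact permutation test (n = 2 per group), in which 0.333 is the smallest p the design allows. As a share of each list the order turned: the interval held 0.291% and 0.239% of the peaks of SGf 1 and SGf 2, and 0.794% and 0.433% of those of SGm 1 and SGm 2. Both SGm shares were above both SGf shares (exact permutation p = 0.333, n = 2 per group), while the SGm lists are the shorter ones. The difference in number also turned sign with each list reduced to the length of the shortest, to -2.5 by p-value and -15.5 by fold, and with groups from the Sex tag, to -0.5.

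Background values matched more often between libraries of the same replicate number than between others. The comparison took, over the whole lists, only peaks whose background was a whole multiple of the control unit (within 0.02). Where summits of such peaks in 2 libraries lay within 10 bp, their recovered backgrounds in units of the control were compared. These were equal for 102 of 196 summits (52.0%) between SGf 1 and SGm 1, and for 319 of 611 (52.2%) between SGf 2 and SGm 2. In the other 4 pairs of libraries they were equal for 9.30% to 11.9%. Peaks with other background values did not enter. The number pairs are also the groups of the Sex tag (SGf 1 and SGm 1 tagged Female, SGf 2 and SGm 2 tagged Male), so replicate number and tagged sex cannot be told apart here. At the array itself, values of a number pair at summits within 10 bp were equal at m05 alone (47.0 in SGf 2 and SGm 2). At m22 they were 59.0 in SGf 1 and 55.0 in SGm 1, and 52.0 in SGf 2 and 48.0 in SGm 2. At m29 they were 86.0 in SGf 1 and 82.0 in SGm 1. Whether the array backgrounds of a number pair are independent measurements was not tested. Of the members, m42 was the single one called in the number 1 pair alone (2.01% of all regions), and 0 were called in the number 2 pair alone (6.41%).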

How the data were processed

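The 4 narrowPeak lists, 1 per YAP1 ChIP library, were analysed. BWA, HOMER 4.11 and mm9 are named in the submitters' processing notes without role or order, and for the peak caller, its control and its threshold the sources used here give nothing. The authors deposited, per peak, its fold enrichment (a ratio over background), −log10 p-value, −log10 q-value and a score, of which the score was not used. The lists carry no counts, and how reads with several matches were handled is not stated, which bears on heights in repeats.

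Peaks overlapping by at least 1 bp were merged. Array members were grouped into clusters at gaps under 1 kb. Pileup and background were solved from fold and p-value with a pseudocount of 1, the arithmetic MACS2 uses, though no source names that caller. The unit of the background (0.938, 0.953, 0.932 and 1.00 in SGf 1, SGf 2, SGm 1 and SGm 2) was found from the values, and background was a whole multiple of it (within 0.02) at 61.2%, 61.8%, 59.2% and 63.6% of peaks. Recovery, merging and period search were tested on simulated data of known answer. They recovered 100% of 857, 864, 836 and 859 peaks, 500 regions and 100 periods (within 2%). The simulated peaks were written with the same arithmetic as the recovery, and the simulated units were evenly spaced. These tests check the code alone. They do not bear on the period of the second array or of all members, where the steps were uneven. The numbers of peaks per library were tested by exact permutation, two-sided.

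The rule for named members took 10 members, those whose poorest rank by fold was best among members in most libraries, plus the first, the last and the widest. Members, lists and rules were chosen with earlier results of these data known. The recovery of pileups, the background above 20 fragments, the blocks, clusters and second peaks, and the classes by 20% steps of fold and p-value were added after seeing the data. The alternatives were a stricter q-value, equal list lengths, other overlaps, each library left out, the Sex tag, pairing by number, a wider interval and another tiling. An mm9 genome or annotation was not used here, and coordinates were not carried between builds. Scripts ran in Python 3.11.15 (scipy 1.17.1, numpy 2.4.6, pandas 2.3.3, matplotlib 3.10.9).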

Additional observations from a re-analysis of the deposited data

How the results depend on the processing

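The 47 members ranged from 38 to 64 over all settings tried. At −log10 q of at least 5 the median gap between members was 2553 bp and the median fold percentile 0.812. At equal list length by p-value (4155 peaks) they were 2839 bp and 0.602. At equal length by fold the median gap was 2968 bp, the median width 342 bp, the period 4302 bp and the members in all 4 libraries 1, since a cut by fold removes low-fold peaks of the 3 longer lists. In each of these 3 settings the interval ranked 1 among intervals, and it ranked 18 with the tiling moved by 0.5 of an interval, which splits it. The period of all members, 4518 bp, was 4313 bp for the first array and 4701 bp for the second. The difference in peaks per library, 6.5, was -2.5 at equal length by p-value, -15.5 at equal length by fold, -0.5 with groups from the Sex tag and, as a share of each list, -0.349 percentage points. With each library left out it was 2.5 to 10.5, the median gap 447 bp to 2852.5 bp (the latter without SGf 1), and the members in all remaining libraries 28 to 37. With a replicate block, in which libraries of a number form a pair, it was 6.5 (exact sign-flip p = 1). Background values that match within a number over the lists, though mostly not at the array, are a hint of this pairing. Groups by the Sex tag are the same pairs. The block changed no call. Total depth is unknown, and whether members missing from SGm 1 lay under its threshold was not tested.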

Other observations

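Outside the interval, peaks with a background above 20 fragments lay together at several places, given here as values. On the Y chromosome, 20 such peaks lay between 2779664 and 2901844 in 1 library, with a median background of 43.0 fragments and a median of 1.87-fold. On chromosome 17, 8 peaks of 3 libraries lay between 39980104 and 39985596, with a median background of 162 fragments, above any array member, and a median of 1.48-fold. On chromosome 8, 8 peaks of 4 libraries lay between 19784416 and 19893390 (background 46.5 fragments, 3.03-fold) and 5 peaks of 4 libraries between 19979817 and 20020622 (36.6 fragments, 2.97-fold). The chromosome 6 array had median backgrounds of 32.2 to 38.1 fragments and median folds of 2.41 to 2.73 in the 4 libraries.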
